A study of Lithobates clamitans with 20 samples.

Results

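The on-off genes were the genes that some tadpoles expressed in the gut at 100 read counts or more while the other tadpoles had a count of exactly 0. A gene was taken when it was at 0 in 5 to 15 of the 20 libraries and at 100 or more in every other library, and 343 of the 8477 genes in the count table met this rule. The genes were thus chosen by their read counts in these libraries, and their presence and absence is given below as a description. The treatments were not used in choosing them.

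RNA from part of the gut was sequenced for 20 green frog tadpoles with 1 library per tadpole, 5 tadpoles in each of 4 groups named here by the start of the animal code. By the codes, D32 were depleted tadpoles (raised with autoclaved pond water, which depletes the microbes available to the gut) kept at 32°C for 24 h, C32 were colonized tadpoles (raised with natural pond water) at 32°C, D22 were depleted tadpoles at 22°C and C22 were colonized tadpoles at 22°C. The treatment fields of the sample records give the same treatments for D32 and C22, but they record C32 as cool depleted and D22 as warm colonized, and which record holds for these 10 tadpoles was not settled. A difference between codes 32 and 22 is therefore a difference of temperature by the codes and of colonization by the treatment fields, and a difference between codes D and C is the reverse. All tadpoles came from 1 mating pair of wild-caught green frogs, were housed individually and were reared at the cool temperature before the treatment, so they were full siblings, and the spread within a group is that among siblings. The age of each tadpole is not in the labels, and the groups share 1 species, *Lithobates clamitans*, with no mutant or transgene.

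A count of 0 states that no read was assigned to a gene model in that library, and whether the RNA itself was absent was not tested. Bulk gut RNA mixes absorptive, secretory, muscle, nerve and immune cells. A gene can be missed because few cells of a type were in the sample or because each cell held little of its RNA. It can also be missed because its reads were not assigned to the gene model, and these cannot be told apart. The reads of the green frog were mapped to the genome of a relative, the American bullfrog, whose gene identifiers the file does not pair with names. No function is therefore given for any gene below, the gut label was not checked against marker genes, and sequences of the genes are not shown.

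Library totals lay between 11102195 and 22922461 counts and were lowest in C22 (median 16533610, against 21707665 in D32, 21918522 in C32 and 21154306 in D22). At these depths 3 counts, the floor used here for a gene at 0, correspond to 0.131 to 0.270 CPM, the count scaled to a common library total. These floors cover only the error of counting, because PCR copies of a molecule could not be recognized. Reads that were not assigned to a gene model are not covered either. The folds given below as at least a value rest on these floors and hold only within these limits. Over all genes and libraries, 13912 values were 0 (8.21%), and the on-off genes held 27.1% of those zeros.

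The level of an on-off gene where it was present was bounded below by the rule, which asked for at least 100 counts. The median CPM over the tadpoles with the gene had a median of 40.0 across the 343 genes, with quartiles of 17.5 and 97.5, close to the median of 43.8 CPM over the 3111 genes of the table with at least 100 counts in every library. The lowest count in any tadpole with the gene was at least 1000 for 81 genes and at least 10000 for 17. Among the 100 genes of the table with the highest such level, 13 were on-off genes. Summed within a library, the on-off genes made up 1.29% to 6.50% of all counts.

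The most abundant on-off gene was AB205_0129100, with a median of 6727 CPM in the 14 tadpoles that had it. Its counts were 96733, 0, 105179, 108671 and 76823 in the D32 tadpoles, 0, 0, 156816, 136609 and 143583 in C32, 194716, 177999, 183393, 180782 and 109556 in D22, and 0, 0, 205611, 0 and 78338 in C22. The gene was present in every D22 tadpole and was missing from at least 1 tadpole of each other group, with no count between 0 and 76823. AB205_0061370, at a median of 5055 CPM, had 0 counts in all 5 D32 tadpoles, 102674 and 93669 in C3204 and C3205 and 0 in the other C32 tadpoles. In D22 tadpoles it had 132920 and 103657 counts in D2201 and D2203, and in C22 tadpoles 76332 and 79825 in C2204 and C2206, with 0 in the remaining tadpoles. Every group but D32 thus held 2 tadpoles with the gene, at levels that differed by no more than 1.44-fold in CPM, next to tadpoles without a read. AB205_0187980, the third of these, had a median of 4384 CPM and was present in 2 tadpoles of D32, 1 of C32, 3 of D22 and 2 of C22.

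The rule bars counts of 1 to 99 from the on-off genes. In the rest of the table counts of 10 to 99 were common, while counts of 1 to 9 were rarer than zeros. Setting the limit for absence at 3 counts in place of 0 chose the same 343 genes. Of the 868 genes at 0 in 5 to 15 libraries, 39.5% met the minimum of 100 counts, 399 had a lowest other count between 10 and 99, and 126 had one under 10. Over all genes and libraries 1250 values lay between 1 and 9 and 47366 between 10 and 99. In the 2660 genes that reached 1000 counts in some library and were not on-off genes, 1299 values were 0, 78 lay between 1 and 9 and 1041 between 10 and 99. Just inside the threshold, AB205_0102140 had 100 counts in D2203 as its lowest value above 0, and AB205_0184530 had 104 in D3203 and again in D2203. Just outside it, AB205_0012220 had 99 counts in D2201 and AB205_0065160 had 99 in C2201.

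**Figure D1:**
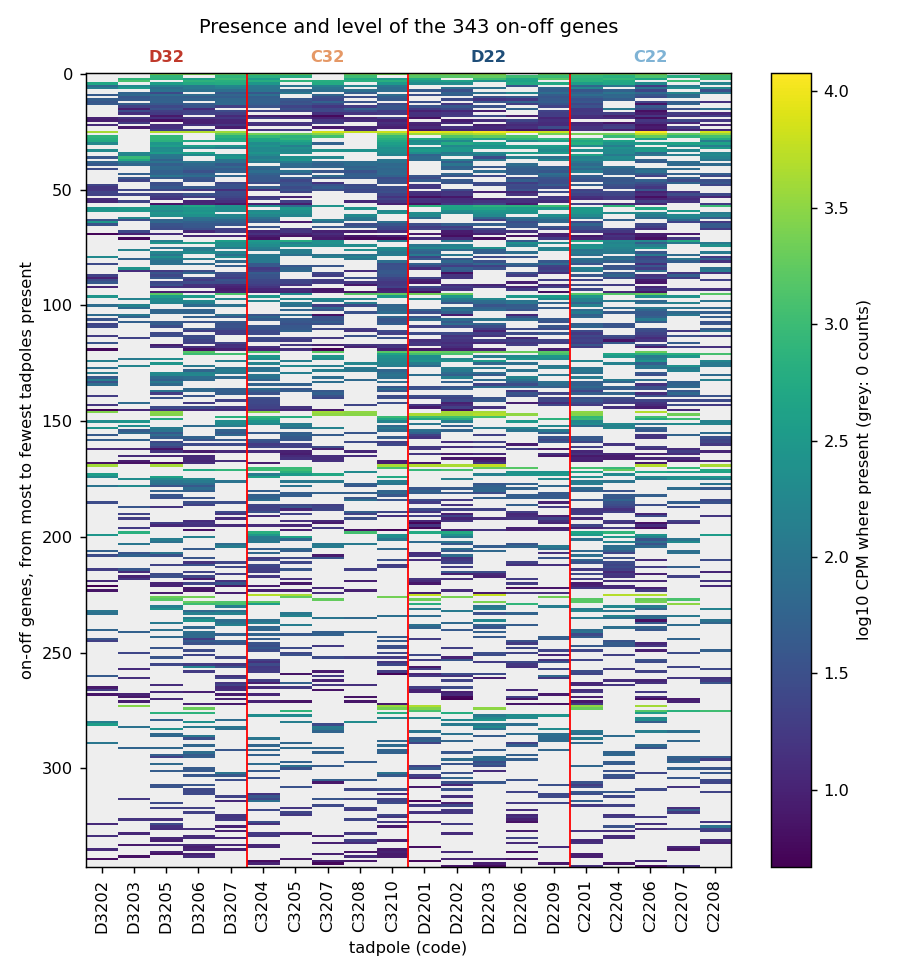
Level of the 343 on-off genes in each of the 20 tadpoles. Columns are tadpoles in the order D32, C32, D22 and C22, separated by red lines, rows are genes sorted by the number of tadpoles with the gene, colour is log10 CPM and grey is a count of 0. Rows change between grey and colour within every group, and the colour of a row stays similar where the gene is present.

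Among the tadpoles that had it, the level of an on-off gene varied little for most genes. The highest CPM was less than 4 times the lowest for 262 of the 343 genes (76.4%) and less than 10 times for 326. The SD of log2 CPM over the tadpoles with the gene had a median of 0.48 (quartiles 0.36 and 0.65), against a median of 0.57 (quartiles 0.44 and 0.74) over all 20 tadpoles for the 3111 genes with at least 100 counts in every library. Fewer tadpoles enter the values of the on-off genes, and no test was made of this difference. The most even gene was AB205_0219900, with 1496 counts in C3210, 1271, 1347 and 1314 in D2201, D2202 and D2209, and 1078 in C2207, which is 59.9 to 73.7 CPM, and with 0 counts in the other tadpoles. The least even was AB205_0216780, present in 6 tadpoles at 6.61 to 275.5 CPM, with 6103 and 1525 counts in D3206 and D3207, 1808 in C3204, 3066 in D2203, and 113 and 1021 in C2206 and C2208.

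The on-off genes were absent in a median of 12 tadpoles. The number of genes was between 15 and 32 at each step from 5 to 13 absent tadpoles and grew to 48 and 70 genes at 14 and 15, the upper edge of the rule.

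Presence was spread over all 4 groups. Of all combinations of an on-off gene and a tadpole, 41.6% were present in D32, 45.2% in C32, 47.5% in D22 and 46.1% in C22. No gene was confined to 1 group, 245 genes were present in at least 1 tadpole of every group, and 183 were both present in some and absent in other tadpoles of every group. All 5 tadpoles had the gene for 15 genes in D32, 18 in C32, 21 in D22 and 18 in C22, and no tadpole had it for 34 genes in D32, 22 in C32, 25 in D22 and 25 in C22.

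The number of on-off genes differed between the tadpoles within each group. A tadpole had 142.8 ± 47.0 of the 343 genes in D32 (mean ± SD, n = 5), 155 ± 36.9 in C32, 163 ± 16.8 in D22 and 158.2 ± 35.8 in C22. The D32 tadpoles had 94, 89, 179, 180 and 172 genes and the C32 tadpoles 200, 157, 132, 107 and 179. The D22 tadpoles had 162, 192, 150, 156 and 155 genes and the C22 tadpoles 194, 162, 192, 123 and 120. The ranges of the 4 groups overlapped, and D3202 and D3203 had the fewest genes of all tadpoles, while the other 3 D32 tadpoles had 172 to 180. These 2 tadpoles also had the most zeros among the genes that are not on-off genes, with 661 in D3202 and 748 in D3203, against 347 to 657 in the remaining tadpoles, while their libraries held 22922461 and 17557653 counts. The shallowest library, C2208, had 120 on-off genes and 591 other genes at 0. Over all 20 tadpoles, the number of on-off genes present and the number of other genes at 0 had a Pearson r of −0.76. The r of on-off genes present and library total was 0.21. The part of these differences between libraries in the results below was not tested beyond leaving libraries out.

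**Figure D2:**
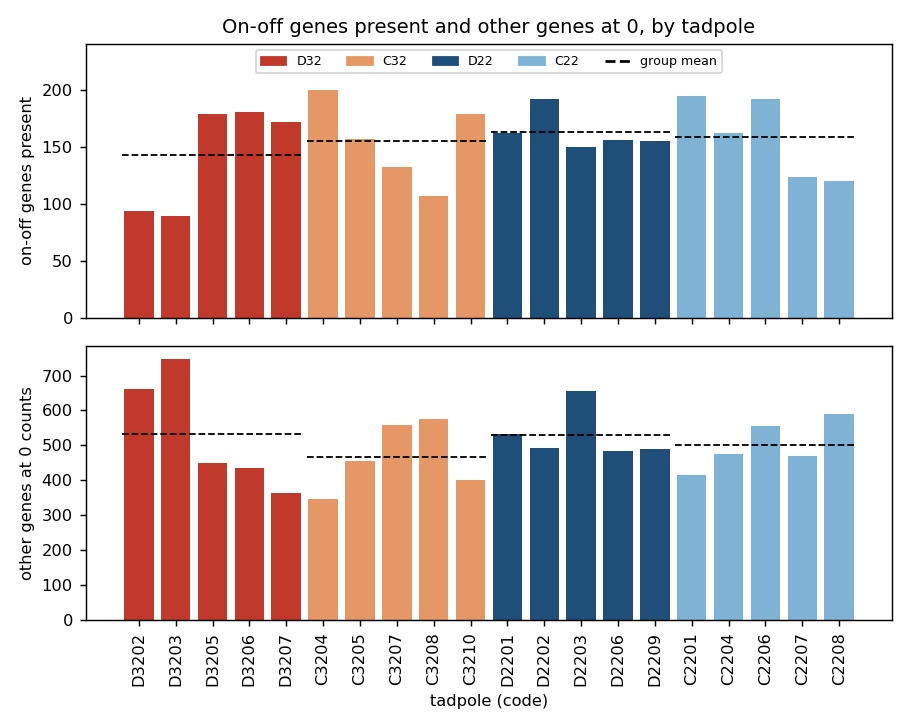
Number of on-off genes present (upper bars) and number of other genes at 0 counts (lower bars) in each tadpole, coloured by group, with the group mean as a dashed line. D3202 and D3203 have the fewest on-off genes, 94 and 89, and the most other genes at 0, 661 and 748.

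On-off genes rarely shared their set of tadpoles. The 343 genes had 341 distinct patterns of presence, and 339 genes had a pattern of their own. Over the 58653 pairs of genes, a pair differed in its state in a median of 10 of the 20 tadpoles, and 69.9% of pairs differed in 8 to 12. Only 6 pairs differed in at most 1 tadpole and 3 pairs in at least 19. Seen from the tadpoles, 2 tadpoles of the same group had the same state for a median of 54.8% of the genes (40 pairs, 47.2% to 63.0%), and tadpoles of different groups for 53.6% (150 pairs, 46.6% to 67.9%).

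In both shared patterns the genes of a pair had their highest levels in different tadpoles. AB205_0111890 and AB205_0044100 were present in D3206, D3207, C3204, D2201, D2206 and C2207. AB205_0111890 had 23384 and 24242 counts in the D32 tadpoles with the gene, 7560 in C32, 14113 and 17427 in D22 and 51969 in C22. AB205_0044100 had 3323 and 640 counts in the same D32 tadpoles, 349 in C32, 170 and 295 in D22 and 384 in C22. The tadpole with the most counts of AB205_0111890 was thus C2207, and that of AB205_0044100 was D3206. AB205_0141970 and AB205_0118970 shared 15 tadpoles, all but D3202, D2206, C2204, C2207 and C2208. AB205_0141970 ran from 16.7 to 42.3 CPM, with 21.3 in D3203, 40.6 in D2202 and its highest value in C2206. AB205_0118970 had 29.7 CPM in D3203, its highest value, 11.1 in D2202 and 6.49 in C2206, its lowest value. In C2206 the first gene was thus at its highest and the second at its lowest level among the tadpoles with the genes.

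A single pair of genes was complementary, so that each tadpole had exactly 1 of both. AB205_0048420 had 0 counts in all D32 and C32 tadpoles, 1679, 1239 and 1064 in D2202, D2203 and D2206, and 728 and 213 in C2207 and C2208. AB205_0133840 had 226, 269, 305, 340 and 330 counts in D32 tadpoles and 380, 276, 221, 236 and 423 in C32. It had 143 and 194 counts in D2201 and D2209 and 253, 182 and 107 in C2201, C2204 and C2206, and it was at 0 in the 5 tadpoles that had AB205_0048420. The gene was therefore present in all 10 tadpoles of code 32 and in 5 of the 10 of code 22. With 58653 pairs compared, 1 complementary pair is given as a description.

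In 10 pairs of on-off genes the numbers in the identifiers of the bullfrog genome differed by exactly 10, the step between consecutive gene models. The genes of such a pair differed in their state in 6 to 13 tadpoles, with a median of 9, close to the median of 10 over all pairs. Whether these genes lie next to each other was not examined here.

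**Figure D3:**
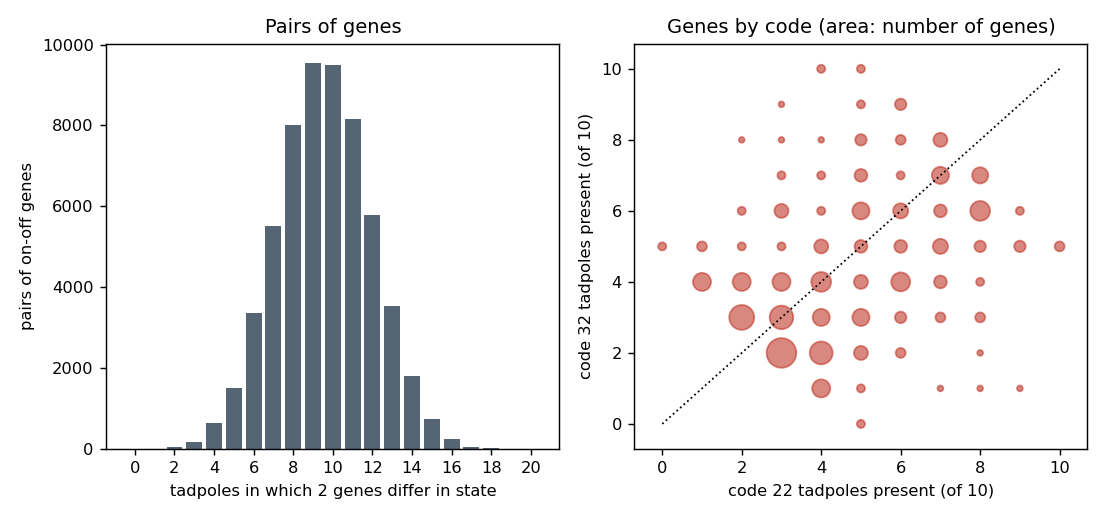
Left, number of pairs of on-off genes (vertical axis) by the number of tadpoles in which the genes of a pair differ in their state, with most pairs between 8 and 12. Right, genes placed by the number of code 22 tadpoles (horizontal axis) and code 32 tadpoles (vertical axis) with the gene, point area growing with the number of genes, and equality as a dotted line.

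Between codes 32 and 22 the number of tadpoles with a gene differed by at most 2 for 239 of the 343 genes. More tadpoles of code 32 than of code 22 had the gene for 121 genes, fewer for 172 and as many for 50. A difference of 6 or more tadpoles was found for 8 genes. The largest was that of AB205_0172870, present in 1 of 10 code 32 tadpoles and 9 of 10 code 22 tadpoles. AB205_0111120 and AB205_0154080 were present in all 10 tadpoles of code 32 and in 4 of code 22. These genes were picked for their difference, and none of the 8 was called between codes 32 and 22 in the fit of all genes described next, in which their adjusted p ran from 0.0697 to 0.839 (edgeR). Between codes D and C the number of tadpoles differed by at most 2 for 259 genes and by 6 or more for AB205_0151460, present in 0 of 10 D and 6 of 10 C tadpoles, and for AB205_0210720, present in 9 of 10 D and 3 of 10 C tadpoles.

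Whether the on-off genes differed between the groups was tested on the counts of all 8477 genes with edgeR's quasi-likelihood test, and a gene was called at a Benjamini–Hochberg adjusted p under 0.05 over all genes. Between codes 32 and 22, 4 on-off genes were called (1.17%), against 22.3% of all genes, 2 of them higher and 2 lower in code 32 against 11% and 11.3% of all genes. These were the 4 on-off genes that all 10 tadpoles of one code lacked. AB205_0172870, present in 1 of 10 tadpoles of code 32 and 9 of 10 of code 22, differed more in presence but was not called (adjusted p = 0.0838, edgeR). The calls thus do not rank the genes by how far their presence differed. The rule chose genes with zeros beside high counts in these same libraries, which sets a wide spread within the codes. The share of called on-off genes therefore depends on the rule and cannot show whether they responded less than all genes. The same limit holds for the shares in the other tests of counts below. The median absolute log2 fold change was 0.83 over the on-off genes and 0.44 over all genes, while 2.33% of on-off genes and 34.4% of all genes had an unadjusted p under 0.05. Between codes D and C, where no gene was called, these medians were 0.63 and 0.20. Zeros that fall unevenly between the sides enlarge the fold changes of on-off genes. The medians therefore also depend on the rule and do not show a larger response. The count of called on-off genes was 7 without C3207, 7 without C3210 and 7 without C2201, and 12 with all 4 groups in 1 fit (3 higher and 9 lower). The shares of all genes called in these fits are not given here.

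AB205_0031460 was higher in code 32. It had 303 counts in D3203 and 501, 815, 554 and 475 in C3204, C3207, C3208 and C3210, with 0 in the other code 32 tadpoles and in all 10 of code 22. Its mean of 12.5 CPM in code 32 was at least 72.1-fold higher than the floor of 3 counts per library in code 22 (adjusted p = 0.0141, edgeR). AB205_0140170 was also higher, with 0, 143, 265, 260 and 226 counts in D32 tadpoles and 230 in C3204, and 0 in all others. Its mean of 5.46 CPM was at least 31.5-fold higher (adjusted p = 0.0145, edgeR). Tadpoles with and without these genes occurred in code 32, so the codes overlapped at 0.

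AB205_0048420, of the complementary pair, and AB205_0102140 were lower in code 32. AB205_0048420 averaged 0 CPM in code 32 and 25.9 CPM in code 22, at least 183-fold lower from the floor in code 32 (adjusted p = 0.0102, edgeR). AB205_0102140 was at 0 in all D32 and C32 tadpoles and had 168 and 100 counts in D2202 and D2203 and 264, 106 and 233 in C2201, C2206 and C2207, with 0 in the other 5 tadpoles of code 22. It was at least 33.0-fold lower in code 32 (adjusted p = 0.00991, edgeR). Each of the 4 genes was thus present in 5 tadpoles, all of 1 code. They were among the 70 on-off genes absent in 15 tadpoles. How many of those would fall in 1 code without any difference between the codes was not tested. The rule also set the zeros beside high counts that these tests used. The adjusted p and folds of these genes therefore do not measure how firmly their presence differed.

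**Figure D4:**
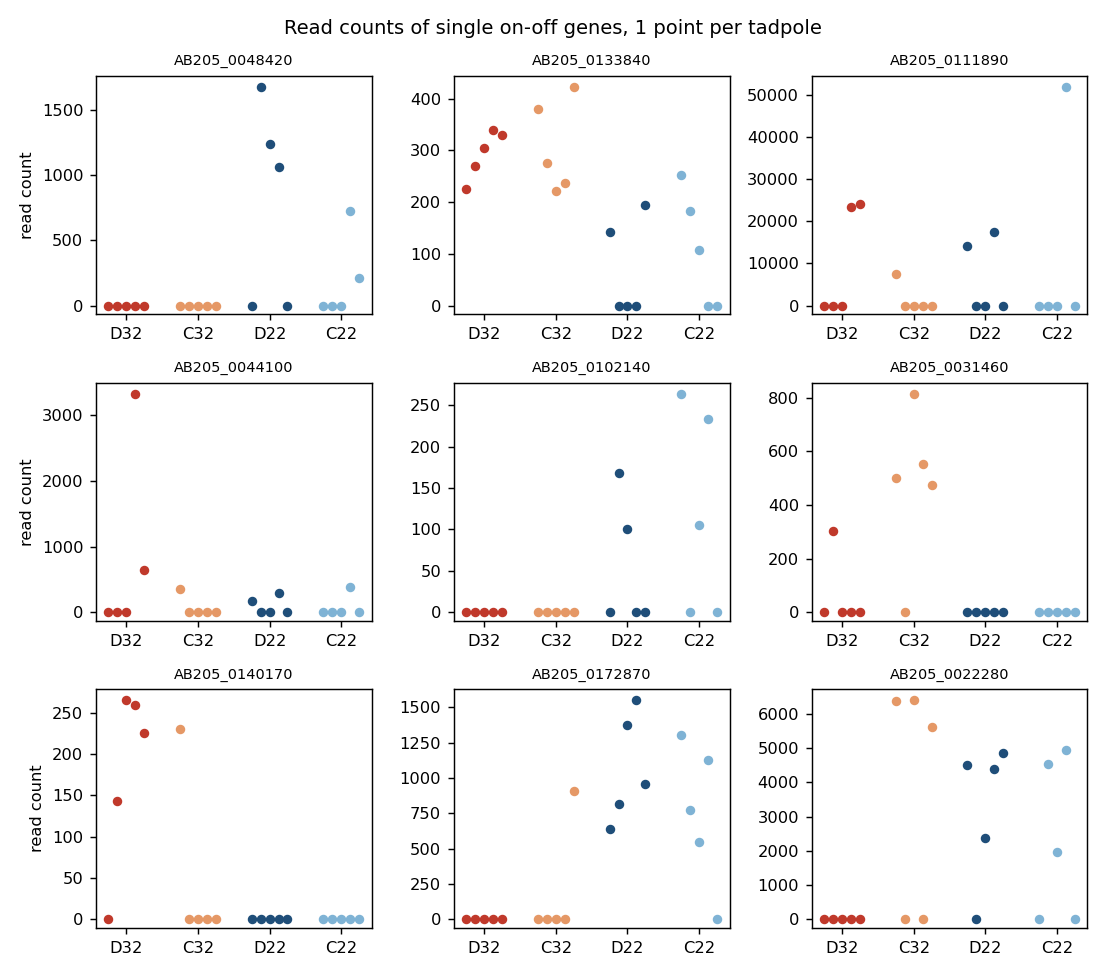
Read counts (vertical axes, linear and with a scale of their own) of 9 on-off genes in the tadpoles of D32, C32, D22 and C22, 1 point per tadpole. The first panels show the complementary pair AB205_0048420 and AB205_0133840, then the pair with a shared pattern AB205_0111890 and AB205_0044100, and then genes called between codes 32 and 22 or between D32 and D22.

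Between codes D and C, which differ in colonization by the codes and in temperature by the treatment fields, edgeR's quasi-likelihood test called 0 on-off genes and 0% of all genes. At an unadjusted p under 0.05 there were 2 on-off genes (0.583%, against 5.32% of all genes), and DESeq2 and edgeR's likelihood ratio test called 1 each, which was lower in D. The interaction of code letter and code temperature also gave 0 called on-off genes and 0% of all genes. There, 55 on-off genes (16.0%, against 12.9% of all genes) had an unadjusted p under 0.05, and the likelihood ratio test called 5 and DESeq2 92 on-off genes. For these 2 tests the shares of all genes called are not given here, and their counts are not read as a result.

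D32 and C22 are the groups whose treatment is the same in both records, warm depleted against cool colonized. Of the on-off genes, 55 were absent from every tadpole of 1 of these groups and present in the other. The rule asks for 5 to 15 zeros, and a group holds 5 tadpoles, so such genes can come with the rule. Their share over all genes was not counted, and the 55 are not read as a difference between the groups. edgeR's quasi-likelihood test called 0 of the 343, against 0.33% of all genes (0.106% higher and 0.224% lower in D32). An unadjusted p under 0.05 was found for 43 on-off genes (12.5%, against 21.2% of all genes). The likelihood ratio test called 21 and DESeq2 36, and the shares of all genes for these 2 tests are not given here. The count of the quasi-likelihood test was 1 without D3202, 3 without D3207, 1 without C2204, 1 without C2207, 2 without C2208, and 2 without both D3202 and D3203. Between C32 and C22 the quasi-likelihood test called 0 on-off genes and 0.59% of all genes (0.248% higher and 0.342% lower in C32). Here 35 on-off genes (10.2%, against 20.9% of all genes) had an unadjusted p under 0.05, and the likelihood ratio test called 17 and DESeq2 31. The count of the quasi-likelihood test was 2 without C3204, 1 without C3205, 2 without C3208, 1 without C3210 and 1 without C2206. For the fits without 1 tadpole, and for the 2 other tests, the shares of all genes called are not given here.

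Between D32 and D22, 6 on-off genes were called (1.75%, against 12.7% of all genes), 1 higher and 5 lower in D32 against 6.39% and 6.28% of all genes. AB205_0172870 had 0 counts in all 5 D32 tadpoles and 639, 817, 1376, 1549 and 959 in D22 tadpoles, at least 375-fold lower in D32 (adjusted p = 0.00301, edgeR). It was at 0 in 4 C32 tadpoles with 904 counts in C3210, and had 1306, 776, 547, 1124 and 0 counts in C22 tadpoles. D32 and D22 did not overlap in this gene. AB205_0022280 had 0 counts in all D32 tadpoles and 4498, 0, 2383, 4399 and 4849 in D22 tadpoles, at least 1141-fold lower (adjusted p = 0.0299, edgeR). It was present in 3 C32 tadpoles at 6383, 6403 and 5638 counts and in 3 C22 tadpoles at 4550, 1964 and 4939. AB205_0140170 was higher in D32, by at least 57.3-fold over the floor in D22 (adjusted p = 0.0370, edgeR). The 6 called genes were among 57 that were absent from every tadpole of 1 of these groups and present in the other. That number was 55 between D32 and C22, where 0 were called, and its share over all genes was not counted. The rule set the zeros beside high counts here too, so the adjusted p and folds do not measure how firmly presence differed.

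The call of AB205_0172870 between D32 and D22 held without any 1 tadpole, but the number of calls depended on single tadpoles. It was 1 without D3205, 2 without D3207, 1 without D2201, 2 without D2203, 10 without D3203 and 11 without D2209. The shares of all genes called in these fits are not given here. AB205_0022280 had an adjusted p of 0.0514 without D3205, 0.0578 without D3207, 0.0718 without D2201, 0.0713 without D2203 and 0.0635 without D2206 (edgeR).

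The level of an on-off gene where it was present is a measure that the rule fixed only at its lower end. It was compared by treating each 0 as a missing value, with limma on log2 normalized CPM for all genes present in at least 2 tadpoles on each side, which kept 311 of the 343 on-off genes between codes 32 and 22. The tadpoles without a gene dropped out of its value. Between codes 32 and 22, 41 of these genes were called (13.2%), 6 higher and 35 lower in code 32. Of all 8228 genes tested, 25.8% were called, 1082 higher and 1043 lower. The on-off genes entered with 5 to 15 tadpoles each, while the 6487 genes without a 0 entered with all 20. The shares called therefore cannot show whether the on-off genes changed less in level than all genes. The median log2 fold change was −0.24 over the on-off genes and −0.01 over all genes tested. Scaling by total counts instead of TMM moved the median of all genes to 0.29 and that of the on-off genes to 0.08. With it, 31 on-off genes were called (9.97%), 19 higher and 12 lower. Of all genes tested, 25.3% were then called, 1691 higher and 394 lower, so the directions moved in the whole table as well. All 41 genes called with TMM kept their sign with total counts, and 18 were called under both scalings, 6 higher and 12 lower in code 32, so the scaling changed which genes passed the threshold. Without both D3202 and D3203, 41 of 302 on-off genes were called (13.6%, against 26.7% of all genes tested). Between codes D and C, 0 of 312 on-off genes were called, against 0.0121% of 8242 genes tested, and scaling by total counts also gave 0. With TMM, 22 on-off genes (7.05%, against 5.63% of all genes tested) had an unadjusted p under 0.05.

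Some genes changed in level under both scalings, and the following 4 were chosen after their values were seen. AB205_0097290 was present in 3 tadpoles of each group and higher in code 32. It had 4488, 4937 and 3717 counts in D32 tadpoles and 2226, 3027 and 3371 in C32, against 511, 463 and 770 in D22 and 1079, 374 and 204 in C22. The log2 fold change between the tadpoles with the gene was 2.07 (standard error 0.30, adjusted p = 0.000478, limma) and 2.46 with total counts, and the codes did not overlap. AB205_0201740 was higher too, at 1537 to 1987 counts in 8 code 32 tadpoles against 343 to 978 in 7 code 22 tadpoles (log2 fold change 0.83, standard error 0.18, adjusted p = 0.00389, limma). AB205_0215350 was lower in code 32, with 7037, 10887 and 4955 counts in D32 and 4633, 1605 and 5834 in C32 tadpoles, against 15132, 10645, 12468, 14790 and 17565 in D22 and 11904 and 10862 in C22. Its log2 fold change was −2.11 (standard error 0.33, adjusted p = 0.000670, limma). AB205_0095360, at 166 to 265 counts in 5 code 32 tadpoles and 161 to 496 in 7 code 22 tadpoles, gave −1.19 on the log2 scale (standard error 0.19, adjusted p = 0.000931, limma), while its raw counts overlapped between the codes.

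**Figure D5:**
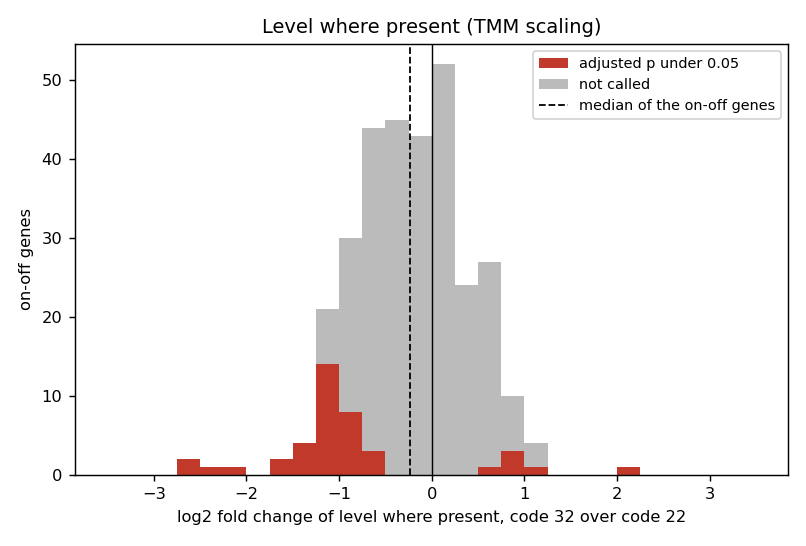
Number of on-off genes (vertical axis) by the log2 fold change of their level where present, code 32 over code 22, with TMM scaling (horizontal axis). Red marks the 41 called genes, grey the others of the 311 tested, and the dashed line is their median of −0.24.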

How the data were processed

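Libraries were made with a TruSeq RNA kit. Per the labels, reads were trimmed (Trim Galore), aligned to the bullfrog draft genome (BWA) and assigned to genes (StringTie), in versions not given in the sources used here. The table the authors deposited holds raw counts for genes that passed a filter of 2 CPM in 3 samples, which each of the 8477 genes met. Whether StringTie counted by strand is not given, and reads shared between related genes could not be examined.

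The rule, the members and the gene choices were made with earlier results of these data known. Groups follow the animal codes, whose temperatures differ from the treatment fields for 10 tadpoles. CPM of single tadpoles use the library total. Counts were tested with edgeR 4.0.16 (TMM scaling, glmQLFit, glmQLFTest) in R 4.3.3, 10 against 10 or 5 against 5 tadpoles, or all 4 groups for the interaction. Alternatives were DESeq2 1.42.0, RLE size factors, total counts, filterByExpr, the likelihood ratio test, an adjusted p under 0.01, all 4 groups in 1 fit, and each tadpole left out. Added after the data were seen were limma 3.58.1 with zeros as missing (prior count 2) and leaving out D3202 and D3203. Genes named were those with the highest, lowest, most and least even levels, shared or complementary patterns, values at the threshold, and the smallest adjusted p of each comparison (at most 2 per direction). On simulated counts for codes 32 against 22 over 8477 genes, both edgeR's test and limma recovered 100% of genes changed 4-fold, and 71% and 63% of those changed 2-fold. The simulated counts had the same spread for every gene and lacked the on-off zeros. They therefore do not show how often a changed on-off gene would be called.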

Additional observations from a re-analysis of the deposited data

Results flagged for a closer look

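In D22, the number of on-off genes present was 192 in D2202, far above the other 4 tadpoles of that group, which had 150 to 162. D2203, another D22 tadpole, had 657 genes at 0 among the genes that are not on-off, against 483 to 532 in the other 4. Both were found by comparing the gap to the nearest tadpole with the range of the group, which chance meets in about 1 of 20 groups, and 43 groups of values were compared in this way.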

How the results depend on the processing

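Leaving out 1 tadpole at a time gave 370 to 393 on-off genes, against 343 with all tadpoles, and 4 to 10 genes with a shared pattern. The counts of the tadpole left out no longer had to meet the rule, and patterns were compared over fewer tadpoles. A minimum of 50 counts gave 477 genes, of 200 counts 244 genes (0 sharing a pattern), of 5 CPM 358 genes, and absence in 3 to 17 libraries 515 genes (22 sharing). Without D3202 and D3203, 18 genes shared a pattern. The count called between codes 32 and 22 was 0 with filterByExpr, which kept 146 of the 343 genes, 1 at an adjusted p under 0.01 and 12 with all 4 groups in 1 fit, and 4 to 7 without 1 tadpole. The filter of filterByExpr asks for reads in about as many tadpoles as the smaller side holds. It thus removed the 4 called genes, each present in 5 tadpoles, before testing. Its 0 does not show that their calls failed. Between codes D and C it was 1 with DESeq2 and 1 with the likelihood ratio test, and 0 to 0 without 1 tadpole. DESeq2 called 36 genes between D32 and C22, 31 between C32 and C22, 43 between D32 and D22 and 92 for the interaction, and the likelihood ratio test called 21, 17, 35 and 5, for causes that were not tested. The shares of all genes called by these 2 tests are not given here, so their counts are not read as a result about the on-off genes. Between D32 and D22, filterByExpr and an adjusted p under 0.01 gave 1 each. There too, filterByExpr removed the called genes present in only 4 tadpoles of these groups before testing. Without 1 tadpole the counts were 0 to 3 between D32 and C22, 0 to 2 between C32 and C22, 1 to 11 between D32 and D22, and 0 for the interaction. Without D3202 and D3203, 2 genes were called between D32 and C22 (0.583%, against 0.991% of all genes). Between D32 and D22 the same setting called 8 (2.33%, against 9.41% of all genes), 3 higher and 5 lower in D32. Called levels where present between codes 32 and 22 numbered 34 to 46 without 1 tadpole and between codes D and C 0. The fold changes of the 8 called genes followed through these settings could not change sign, because 1 side of each comparison held only zeros. Their constant sign is therefore no measure of stability. Of 165 values, 23 lost the call. No paired analysis was possible because the last digits of the codes number separate, individually housed tadpoles. By the error of counting alone, a 0 limits each gene to under 3 counts in that library, and the depth leaves smaller amounts undetected. Reads not assigned to a gene model are outside this limit.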
